A study of Mus musculus with 5 samples.

Results

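The genes of integrins and of the adhesion receptors and linkers that work with them were followed in murine bone marrow plasma cells (PCs) before and after culture. Members were 10 genes taken from the array annotation by symbol, out of 18193 genes that had a probe set of their own. They comprise the integrin α subunit genes Itga4, Itga6 and Itgal, the β subunit genes Itgb1, Itgb2, Itgb3 and Itgb7, the tetraspanin gene Cd37, the hyaluronan receptor gene Cd44 and the talin gene Tln1. These genes were represented by 28 probe sets, the groups of short probes that each give 1 value per array. Of these, 24 reached an intensity of 50 in at least 2 of the 5 arrays and were tested, with at least 1 for each of the 10 genes. The other 4 all belonged to Itgb1.

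PCs came from the bone marrow of C57BL/6J mice that had been primed with NP-CCG (as the labels spell it, NP-CGG in the study's methods) and boosted with it, and were enriched by magnetic removal of B220+ and CD49b+ cells followed by selection of CD138high cells. One group was lysed directly (ex vivo, 2 arrays). The other was kept for 3 days on ST2, a line of mouse stromal cells, with the cytokine APRIL at physiological oxygen and was then sorted by flow cytometry (cultured, 3 arrays). All samples share this strain and immunization, and no modified allele is named for any of them. The sample titles number 2 experiments (E1 and E2), of which experiment 1 gave 1 array of each group whereas experiment 2 gave 1 ex vivo and 2 cultured arrays. No age of the mice, number of mice per sample or origin of the 2 cultured arrays of experiment 2 from separate cultures is stated, so p-values measure the spread between these arrays, which may be technical. Because the ex vivo cells were taken after magnetic isolation and the cultured ones after sorting, isolation and culture cannot be told apart. The array measures RNA of all cells in a sample together, and fewer cells of a type cannot be told apart from less RNA per cell.

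Integrins are receptors made of an α and a β chain that bind matrix proteins or counter-receptors on other cells. In lymphocytes they are switched on from inside, when talin and kindlin bind the short tail of the β chain and connect it to actin. The pair α4β1, called VLA-4, binds VCAM-1 and fibronectin, the pair αLβ2, called LFA-1, binds ICAM-1 and ICAM-2, and α4β7 binds MAdCAM-1 of mucosal vessels. The study asked which signals PCs receive through contact with stromal cells and lowered integrin β1 in them, which makes the supply of these chains before and after co-culture a comparison of interest.

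Among the 10 genes, Itgb3 was the only one whose change with culture passed a test, and it did so only when the experiment was taken into account. Of the 24 probe sets, none passed limma's test for culture (adjusted p under 0.05; 2 at an unadjusted p under 0.05), where 0.0459% of all 30477 tested probe sets passed. With the experiment as a block, 1 of 24 passed, the brighter probe set of Itgb3, where 1.80% of all passed. The median size of the change was 0.17 on the log2 scale without the block and 0.13 with it, against 0.17 and 0.15 over all tested probe sets. With the block, the 95% interval of the change stayed within 1 log2 unit of zero for 23 of the 24 probe sets, and for 93.3% of all tested. Every cultured array lay on 1 side of both ex vivo arrays for 5 of the 24, against 20.0% of all tested probe sets. All 3 changes within an experiment had the same direction for 11 of the 24, 7 higher and 4 lower, against 47.9% of all. These last 2 counts for the integrin group were close to those of the array as a whole.

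**Figure D1:**
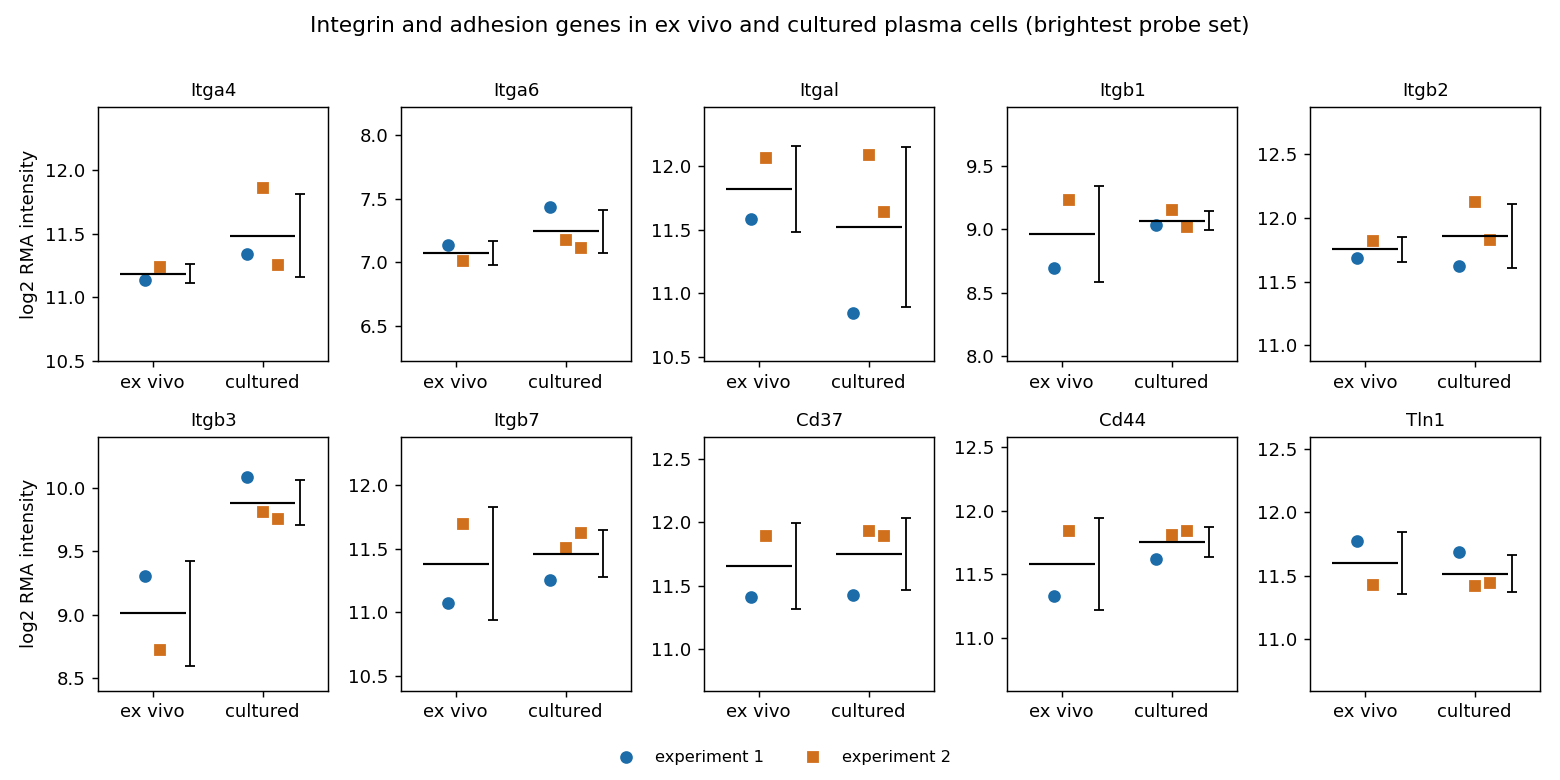
Log2 RMA intensity of the brightest probe set of each of the 10 genes in the ex vivo (n = 2) and cultured (n = 3) arrays, with circles for experiment 1, squares for experiment 2, horizontal lines for group means and vertical bars for SDs. Each panel spans 2 log2 units around its own values. Only Itgb3 and Itga4 have all cultured arrays above both ex vivo arrays, and the separation of Itga4 is 0.02.

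Itga4 encodes the α4 chain shared by VLA-4 and α4β7. Its RNA was well above the floor in every array and did not pass the test on any of its 5 probe sets. On the brightest one (1450155_at) the log2 intensity was 11.13 and 11.24 ex vivo in experiments 1 and 2, and 11.34, 11.86 and 11.25 in culture. All cultured values were above both ex vivo values, but the last exceeded the higher ex vivo array by 0.02 only. The log2 change was 0.30 (standard error 0.22, 95% interval -0.27 to 0.87, adjusted p = 0.884, limma), and 0.27 with the block (adjusted p = 0.524). The remaining 4 probe sets gave changes between 0.0075 and 0.39 without the block and between 0.07 and 0.33 with it. The highest of these, on the dim probe set 1427615_at, had a log2 level of 7.30 and 7.79 ex vivo and of 7.78, 7.94 and 8.07 in culture (0.33 with the block, standard error 0.12, adjusted p = 0.239).

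Itgb1 encodes the β1 chain, the partner of α4 in VLA-4 and of α6 in the laminin receptor α6β1. Its RNA did not pass the test. On its brightest probe set (1452545_a_at) the log2 intensity was 8.69 and 9.23 ex vivo, and 9.03, 9.15 and 9.02 in culture, so that all cultured values lay between the 2 ex vivo values. The log2 change was 0.10 (standard error 0.20, 95% interval -0.40 to 0.61, adjusted p = 0.945, limma). With the block it was 0.06, with an interval from -0.31 to 0.43 (adjusted p = 0.87). The second tested probe set (1426918_at) read 8.93 and 8.90 ex vivo and 9.06, 8.92 and 8.73 in culture, and its change of -0.01 had an interval from -0.40 to 0.37 (adjusted p = 0.987). The 4 probe sets that were not tested had group means from 2.74 to 5.29 and give no usable level of Itgb1.

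Itgb7 encodes the β7 chain of α4β7 and was represented by a single probe set (1418741_at). Its log2 intensity was 11.07 and 11.70 ex vivo, and 11.26, 11.51 and 11.62 in culture. Again all cultured values fell between the ex vivo ones. The change was 0.08 (standard error 0.24, 95% interval -0.53 to 0.69, adjusted p = 0.961, limma) and 0.005 with the block, where the interval narrowed to -0.31 to 0.32 (adjusted p = 0.988).

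Itga6 encodes the α6 chain, which pairs with β1 or β4 to bind laminin. Its signal was low. The brighter probe set (1422444_at) read 7.14 and 7.01 ex vivo and 7.44, 7.18 and 7.11 in culture on the log2 scale. Groups overlapped, since the last cultured value lay below the first ex vivo value, although each cultured array was above the ex vivo array of its own experiment. The change was 0.17 (standard error 0.16, adjusted p = 0.909, limma) and 0.21 with the block (95% interval -0.06 to 0.48, adjusted p = 0.383). On the dimmer probe set (1422445_at) the change was 0.02 (adjusted p = 0.99).

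LFA-1 consists of the chains of Itgal and Itgb2. Both transcripts were abundant on their probe sets in all arrays. On its brighter probe set (1425367_at) Itgal read 11.58 and 12.06 ex vivo and 10.85, 12.09 and 11.64 in culture, so the groups overlapped, with the lowest value in the cultured array of experiment 1. The log2 change was -0.30 (standard error 0.40, 95% interval -1.32 to 0.73, adjusted p = 0.928, limma), and -0.43 with the block (adjusted p = 0.321). On the other probe set (1435560_at) the values were 11.10 and 11.06 ex vivo and 10.96, 10.35 and 10.31 in culture. Here every cultured array lay below both ex vivo arrays. This change of -0.54 (standard error 0.24, adjusted p = 0.806) did not pass, nor did that of -0.48 with the block (95% interval -0.88 to -0.08, adjusted p = 0.207). When each gene was represented by the median of its probe sets, Itgal had a change of -0.45 with the block (standard error 0.11, adjusted p = 0.103), which was likewise short of the threshold. Within the experiments the first probe set changed by -0.74 in experiment 1 and by 0.02 and -0.42 in experiment 2, and the second by -0.14, -0.71 and -0.75. The interaction of culture and experiment did not pass for either (adjusted p = 0.71 and 0.654).

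Itgb2 encodes the β2 chain that LFA-1 shares with the integrins of myeloid cells, and it read 11.68 and 11.82 ex vivo and 11.62, 12.13 and 11.82 in culture on its only probe set (1450678_at). The cultured values spanned both ex vivo values. The change was 0.10 (standard error 0.19, 95% interval -0.38 to 0.59, adjusted p = 0.944, limma) and 0.06 with the block (adjusted p = 0.86).

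Itgb3 encodes the β3 chain, which pairs with αV to bind vitronectin and other matrix proteins and with αIIb on platelets. It was the member with the largest change. On its brighter probe set (1455257_at) the log2 intensity was 9.30 and 8.72 ex vivo in experiments 1 and 2, and 10.08, 9.80 and 9.76 in culture. All cultured arrays lay above both ex vivo arrays, a separation for which an exact two-sided permutation test of 2 against 3 arrays cannot give less than p = 0.1. The group means were 9.01 ± 0.41 (SD, n = 2) and 9.88 ± 0.18 (SD, n = 3), a ratio of 1.83. Changes within the experiments were 0.78 in experiment 1 and 1.08 and 1.04 in experiment 2. Without the block, the log2 change of 0.87 did not pass (standard error 0.23, 95% interval 0.29 to 1.45, adjusted p = 0.509, limma). With the block Itgb3 rose by 0.94 (standard error 0.12, interval 0.64 to 1.24, adjusted p = 0.0301), and 97.8% of all tested probe sets had a smaller change.

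The call of Itgb3 depended on single arrays and on the handling of the repeat. With the block it missed the threshold when the 2 cultured arrays of experiment 2 were averaged (0.92, adjusted p = 0.0875), without the first of them (0.91, adjusted p = 0.0664) and without the second (0.93, adjusted p = 0.125). Calls over all tested probe sets fell from 550 to 187, 271 and 153 in the same order. The size of the change stayed between 0.78 and 1.06 in all 12 alternatives with the block. The filter, the floor, the intensity trend and the p threshold cannot alter this size. Leaving out the ex vivo or the cultured array of experiment 1 gave the same change of 1.06. An adjusted p under 0.05 was reached in 5 of the 12. Among these is the setting of an unadjusted p under 0.01, which only repeats the main fit. Leaving out an array of experiment 1, or the ex vivo array of experiment 2, leaves the change to 1 experiment with 1 ex vivo array. Those settings cannot decide the call. The dimmer probe set (1421511_at) moved less. It read 7.09 and 7.44 ex vivo and 7.49, 7.60 and 7.64 in culture, with a change of 0.31 (standard error 0.16, adjusted p = 0.832) and of 0.28 with the block (95% interval -0.0049 to 0.56, adjusted p = 0.277). For the median of both probe sets the change with the block was 0.61 (standard error 0.10, adjusted p = 0.0327).

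Neither α partner of Itgb3 passed. Itgav, the gene of αV, had a mean log2 level of 9.30 ± 0.25 (SD, n = 2) ex vivo and 9.21 ± 0.09 (SD, n = 3) in culture, and its change with the block was -0.12 (interval -0.41 to 0.16, adjusted p = 0.624, limma). Itga2b, the gene of αIIb, was at 7.76 ± 0.0036 ex vivo and 7.57 ± 0.06 in culture (-0.20 with the block, interval -0.46 to 0.07, adjusted p = 0.392). Of the 7 markers of megakaryocytes and platelets on the array, 5 stayed below an intensity of 50 in all ex vivo and all cultured arrays, the platelet factor gene Pf4 among them, and their summed intensity was 510.5 to 523 ex vivo and 451 to 515 in culture. Stromal markers rose in the same cultured arrays. Their summed intensity over 15 genes was 779 to 963 ex vivo. In culture it was 5245 in the array of experiment 1 and 14820 and 15010 in those of experiment 2. Of 14 tested, 10 rose with the block, where 1.74% of all tested genes passed. Among these 10, Col3a1, Col6a1, Cav1, Cxcl12 and Lox reached the floor in the cultured arrays only. They entered the test because they were high there and add no support. Itgb3 (1455257_at) read 10.08 in the cultured array of experiment 1 and 9.80 and 9.76 in those of experiment 2. Its changes within the experiments were 0.78, 1.08 and 1.04 in the same order. The share of stromal RNA in the Itgb3 signal was not tested.

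**Figure D2:**
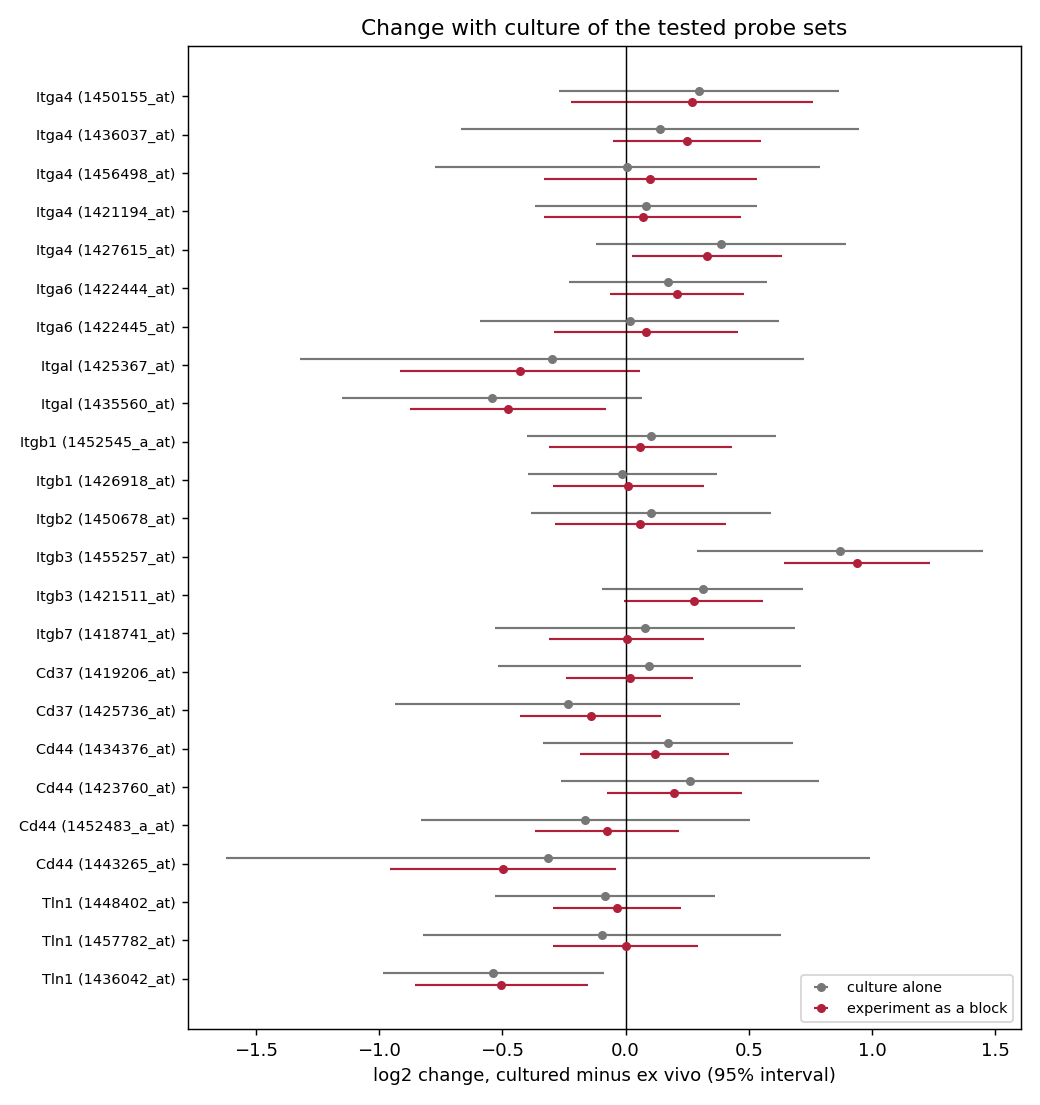
Fitted log2 change from ex vivo (n = 2) to cultured (n = 3) PCs for each of the 24 tested probe sets, with 95% intervals, in the model with culture alone (grey) and with the experiment as a block (red). The interval of the Itgb3 probe set 1455257_at, from 0.64 to 1.24 with the block, is the one that lies farthest from 0.

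Cd37 encodes a tetraspanin of B-lineage cells that organizes integrins in the membrane. Its brighter probe set (1419206_at) hardly moved with culture. It read 11.41 and 11.89 ex vivo and 11.43, 11.93 and 11.89 in culture, so each cultured array lay within 0.04 of the ex vivo array of its experiment. With the block the change was 0.02 (standard error 0.10, 95% interval -0.24 to 0.27, adjusted p = 0.952, limma). The dimmer one (1425736_at) read 9.35 and 8.66 ex vivo and 9.07, 8.59 and 8.64 in culture, a change of -0.14 with the block (interval -0.43 to 0.14, adjusted p = 0.565).

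Cd44 encodes the receptor for hyaluronan, a glycan of the marrow matrix. Of its 4 probe sets none passed. The brightest (1434376_at) read 11.33 and 11.84 ex vivo and 11.62, 11.81 and 11.84 in culture, and differences lay mainly in experiment 1. Its change was 0.17 (standard error 0.20, adjusted p = 0.917, limma) and 0.12 with the block (95% interval -0.18 to 0.42, adjusted p = 0.657). The next (1423760_at) gave 0.20 with the block and the third (1452483_a_at) gave -0.08. The dimmest (1443265_at) had 6.50 and 7.63 ex vivo and 6.04, 6.82 and 7.38 in culture, and its change of -0.50 with the block (interval -0.96 to -0.04, adjusted p = 0.242) ran against those of the 2 brightest. No direction can therefore be given for Cd44.

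Tln1 encodes talin, the adaptor that activates integrins. On its bright probe set (1448402_at) it read 11.77 and 11.43 ex vivo and 11.69, 11.42 and 11.45 in culture. The groups overlapped and each cultured value lay close to the ex vivo value of its experiment. With the block the change was -0.03 (standard error 0.11, 95% interval -0.30 to 0.23, adjusted p = 0.895, limma), and that of the second probe set (1457782_at) was 0.00059 (interval -0.29 to 0.29). The dimmest probe set (1436042_at) behaved otherwise, with 7.51 and 7.20 ex vivo and 6.88, 6.94 and 6.63 in culture. Every cultured array lay below both ex vivo arrays here, with a change of -0.54 (standard error 0.18, adjusted p = 0.659) and of -0.51 with the block (interval -0.86 to -0.15, adjusted p = 0.152). Neither passed, and the brighter probe sets of Tln1 did not show it.

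**Figure D3:**
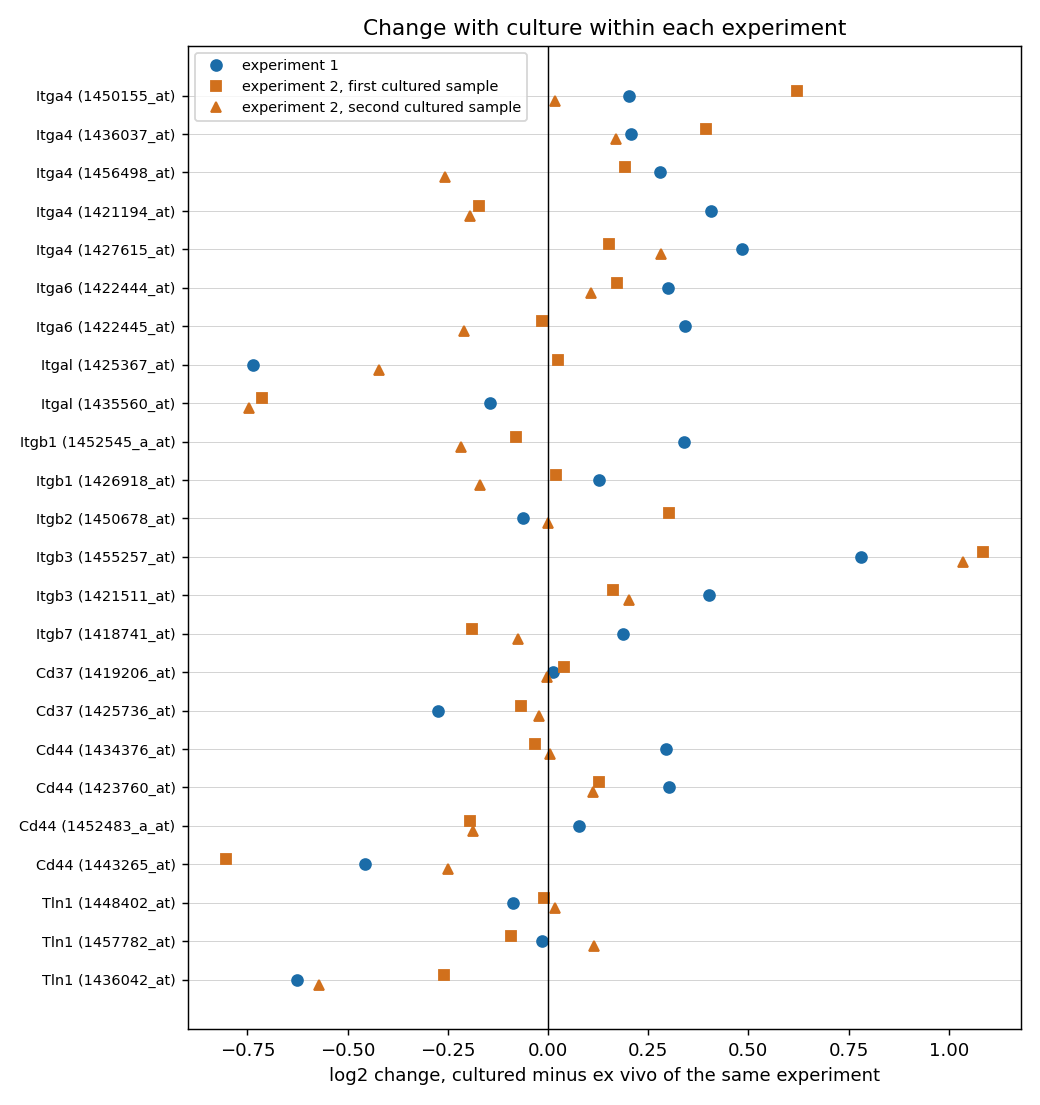
Log2 change of the 24 tested probe sets from the ex vivo to the cultured array of the same experiment, with a circle for experiment 1 and a square and a triangle for the 2 cultured arrays of experiment 2. Itgb3 (1455257_at) lies at 0.78, 1.08 and 1.04, whereas the points of Itgb1 and Itgb7 fall on both sides of 0.

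Differences between the experiments were larger in the integrin group than those with culture, as on the array as a whole. With culture as a covariate, 8 of the 24 probe sets differed between experiment 2 and experiment 1 in limma's test, where 26.8% of all tested probe sets did, and the median size was 0.38 against 0.27 over all. Higher in experiment 2 were Itgal (1425367_at, 0.79, standard error 0.20, adjusted p = 0.0357), Cd37 (1419206_at, 0.48, standard error 0.10, adjusted p = 0.0239) and Cd44 on its dimmest probe set (1443265_at, 1.09, standard error 0.18, adjusted p = 0.0128). Lower were Itga4 on 1436037_at (-0.66), Tln1 on 1457782_at (-0.58), Cd37 on 1425736_at (-0.56), Cd44 on 1452483_a_at (-0.52) and Itgb3 on 1455257_at (-0.42, adjusted p = 0.0499). Cd37 and Cd44 thus each had 1 probe set higher and 1 lower in experiment 2. Probe sets that did not pass ran the other way for Itgal (1435560_at, -0.38) and Itgb3 (1421511_at, 0.22). For Itga4 so did 1427615_at (0.34), 1450155_at (0.17) and 1421194_at (0.08), whereas 1456498_at (-0.56) was lower too. No direction of the difference can therefore be given for any of these genes. The number of integrin probe sets called was 5 in place of 8 when the first repeat of the cultured cells of experiment 2 was dropped, and 1 when the other repeat was. Over all probe sets it was 6916 and 4090 in place of 8170. Leaving out any other array leaves the difference to 1 group with 1 array of experiment 1, which cannot decide a call.

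Control probe sets at the 3' and 5' ends of housekeeping transcripts also differed between the experiments. Both arrays of experiment 1 had a higher 3' to 5' ratio for Actb (log2 0.31 ex vivo, 0.77 cultured) than the arrays of experiment 2 (-0.12 to -0.0094). The same held for Gapdh, with 0.74 and 0.63 against 0.28 to 0.34. Whether RNA quality has a part in the differences of the integrin probe sets was not tested. Limma's test of the interaction of culture and experiment passed for none of the 24 (2 at an unadjusted p under 0.05) and for 0% of all tested probe sets (0 at an adjusted p under 0.05, 2008 at an unadjusted p under 0.05).

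**Figure D4:**
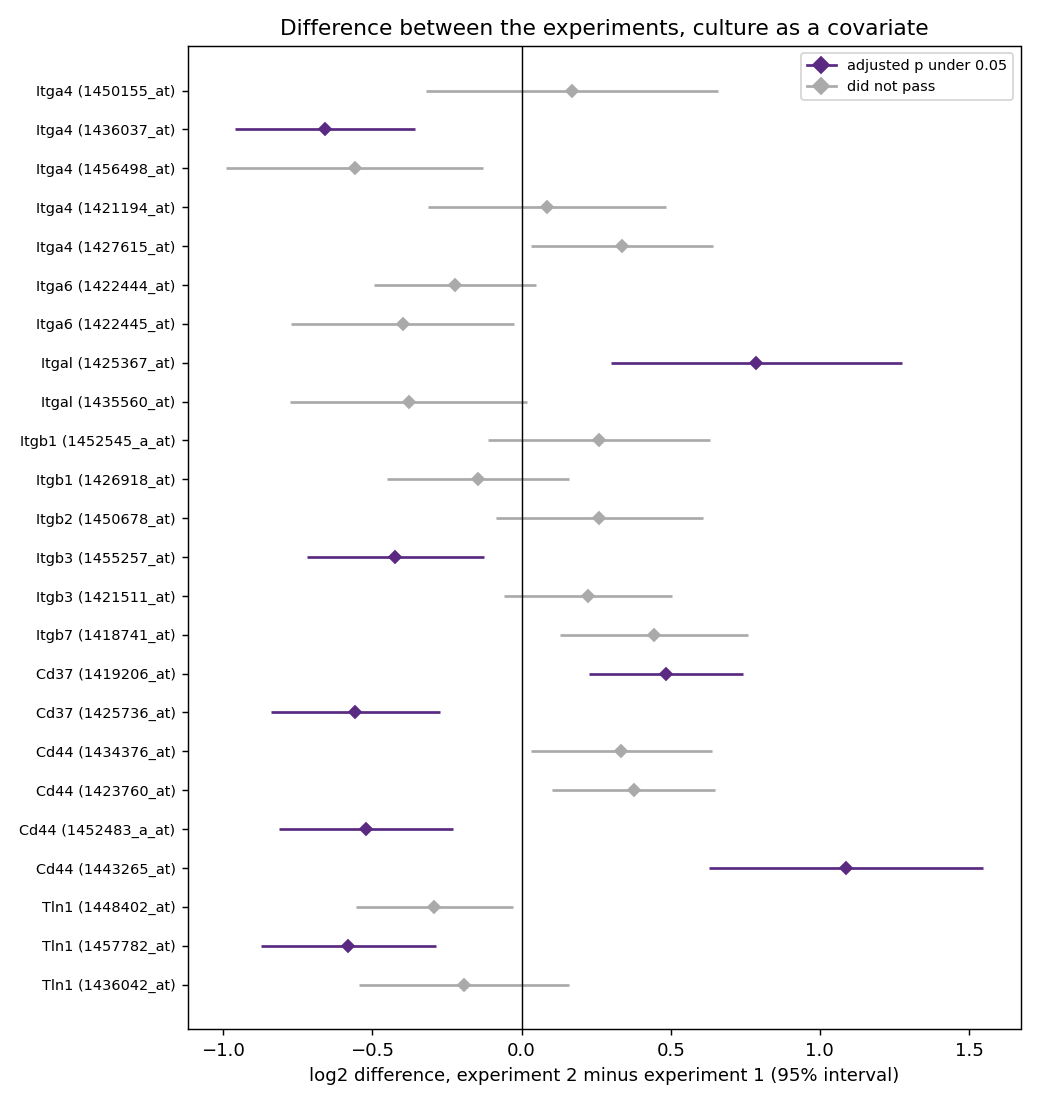
Fitted log2 difference between experiment 2 and experiment 1 for each of the 24 tested probe sets, with 95% intervals and culture as a covariate. The 8 probe sets that passed (purple) lie on both sides of 0, from -0.66 for Itga4 to 1.09 for Cd44, and the 2 probe sets of Cd37 lie on opposite sides.

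Integrin chains outside the group did not pass either. Of 8 tested α chains and 2 tested β chains, none passed with or without the block. The largest changes among the α chains were those of Itga5, the fibronectin-binding α5 chain (0.45 with the block, standard error 0.11, adjusted p = 0.12, limma), and of Itgae, the α partner of β7 in mucosal T cells (-0.30, standard error 0.12, adjusted p = 0.274). The second probe set of Itga5 gave 0.02 and that of Itgae -0.64 (adjusted p = 0.143). Itgb5 and Itgb4 gave 0.26 and -0.04 with the block. Itgam and Itgax, which encode the α chains of myeloid β2 integrins, stayed below an intensity of 50 in all arrays, as did Itga8, Itgb6 and Itgb8.

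Of 29 tested activators and adaptors of integrins, which include kindlins, vinculin, paxillin and RAP1, none passed in either model, and 3 had an unadjusted p under 0.05 when culture stood alone. The largest changes, both short of the threshold, were those of Parva and Flna. Parva, which encodes parvin α, a partner of integrin-linked kinase, was at a log2 level of 4.68 in both ex vivo arrays and at 6.33, 8.85 and 8.48 in culture (2.99 with the block, standard error 0.51, adjusted p = 0.0588). Its ex vivo values lay below the floor. The second probe set of Parva reached the floor in 2 arrays only and gave 1.21 with the block. Flna, the actin crosslinker filamin A, read 8.77 and 9.24 ex vivo and 9.38, 10.27 and 10.13 in culture (0.81 with the block, standard error 0.13, adjusted p = 0.0541). Both were higher in the cultured arrays of experiment 2, in which the summed stromal markers were also higher, and the part of stromal RNA was not tested.

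The ligands of the members held transcripts that moved in both directions with the block. Of 14 tested ligands of integrins and CD44, none passed when culture stood alone (5 at an unadjusted p under 0.05), whereas 2 rose and 1 fell once the block was added. Over all tested genes, 1.74% passed with the block. Fn1, the fibronectin gene, read 5.86 and 5.33 ex vivo and 9.06, 10.62 and 10.71 in culture, a rise of 4.42 with the block (standard error 0.46, adjusted p = 0.018, limma). Of its ex vivo values 1 lay below the floor and the other just above it, so the size of this rise rests on values near background. Madcam1, which encodes the ligand of α4β7, rose by 1.23 (standard error 0.18, adjusted p = 0.0407), from 6.76 and 6.65 ex vivo to 8.37, 7.64 and 7.54 in culture. Vcam1, the gene of the VLA-4 ligand, fell by 1.17 (standard error 0.11, adjusted p = 0.0147), from 6.87 and 7.62 to 5.64, 6.58 and 6.44. Within experiment 1 its change was -1.23, and within experiment 2 it was -1.05 and -1.19. The cultured value of Vcam1 in experiment 1 lay just below the floor, so the size of that change rests on a value near background. Of the other 2 probe sets of Vcam1, 1 had a change of -0.25 that did not pass (adjusted p = 0.323). The last (-2.33, adjusted p = 0.0312) reached the floor in the 2 ex vivo arrays only, so it entered the test because it was high there and adds no support. The count of 3 ligands fell to 2 with the cultured arrays of experiment 2 averaged or without the first of them, and to 1 without the second. Over all probe sets the calls fell from 550 to 187, 271 and 153 in these settings. Leaving out any other array leaves the change to 1 experiment with 1 ex vivo array, which cannot decide a call. Without the intensity filter the count of ligands was 1, and that of all probe sets 206. Vcam1 is itself on the list of macrophage markers, of which 5 of 9 tested fell with the block, Vcam1 included, and 1 rose. C1qa and C1qb, which are among those that fell, reached the floor in the ex vivo arrays only. They entered the test because they were high there and add no support. The part of macrophages in the Vcam1 values was not tested.

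The LFA-1 ligands did not pass. Icam1 read 10.27 and 10.13 ex vivo and 11.13, 11.28 and 10.80 in culture, all cultured values being higher, with a change of 0.89 with the block (standard error 0.17, 95% interval 0.47 to 1.30, adjusted p = 0.0746, limma). Icam2 had a change of -0.10 (interval -0.42 to 0.21, adjusted p = 0.715). Which cells of the cultured samples held these ligand transcripts cannot be read from bulk RNA.

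**Figure D5:**
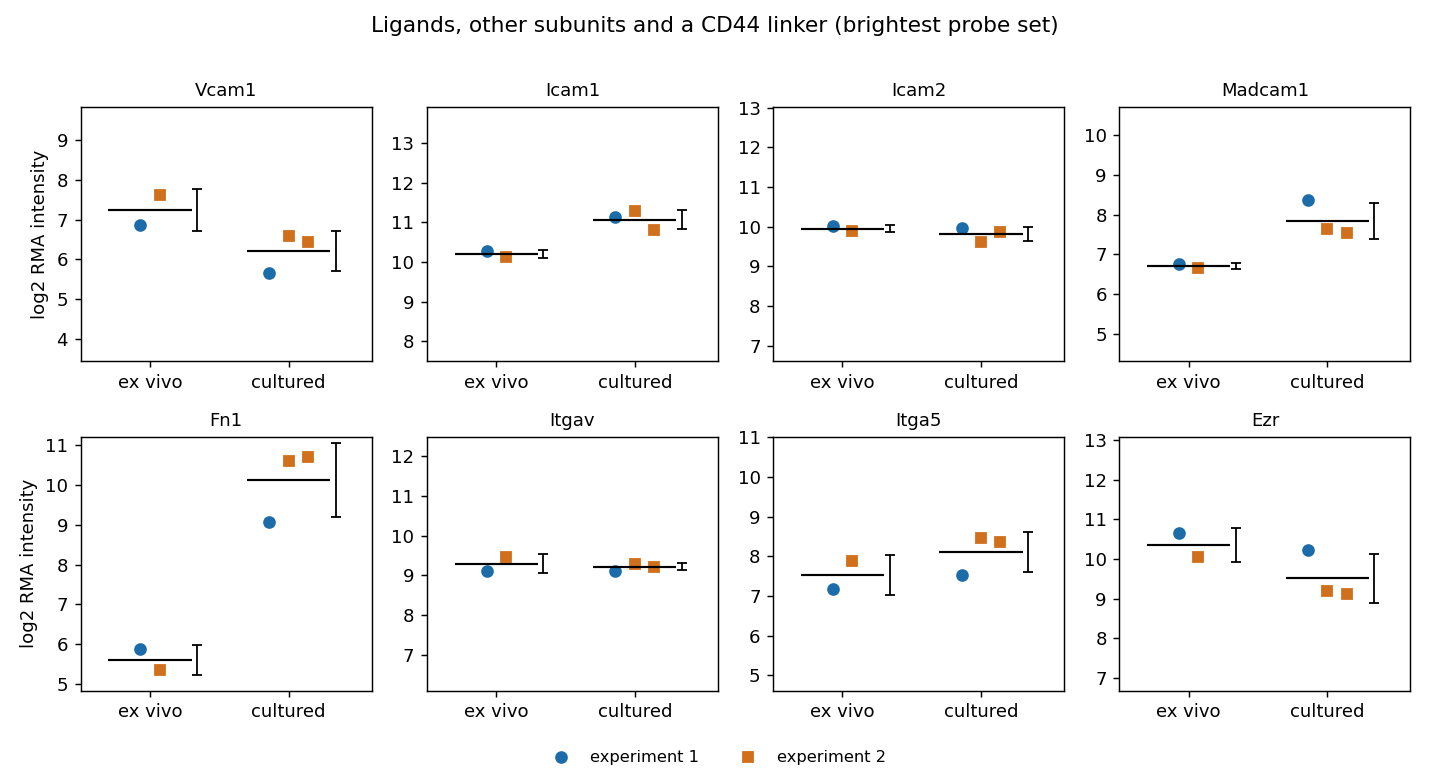
Log2 RMA intensity of integrin ligands (Vcam1, Icam1, Icam2, Madcam1, Fn1), of 2 other integrin chains (Itgav, Itga5) and of the CD44 linker gene Ezr in ex vivo (n = 2) and cultured (n = 3) arrays, drawn as in the plot of member levels with panels of equal height. Fn1 lies at 5.86 and 5.33 ex vivo and from 9.06 to 10.71 in culture, and Itgav shows no shift of that kind.

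Tetraspanins other than Cd37 did not pass in any of 19 tested genes, and the largest changes in the model of culture alone were those of Tspan6 (0.84, adjusted p = 0.827, limma) and Tspan4 (0.61, adjusted p = 0.871), with changes of -0.09 and -0.04 in experiment 1 and from 0.78 to 1.42 in experiment 2. Tspan6 reached the floor in 2 arrays only, both cultured. None of the 4 genes that link CD44 to actin passed. Ezr, which encodes ezrin, read 10.66 and 10.05 ex vivo and 10.23, 9.20 and 9.11 in culture (-0.70 with the block, standard error 0.14, adjusted p = 0.0883), but its other probe set gave -0.18, and Rdx, which encodes radixin, gave -0.12. Of 16 other leukocyte adhesion receptors none passed. Alcam, which encodes a ligand of CD6, had a change of -0.70 with the block (standard error 0.21, adjusted p = 0.167, limma). Its other probe sets gave changes from -0.46 to -0.03. Spn, which encodes the sialomucin CD43, had a change of -0.36 (adjusted p = 0.371), and its second probe set gave -0.10.

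The labelled cell type was checked by its markers. All 10 PC markers on the array were above an intensity of 50, none passed with or without the block, and Sdc1, the gene of CD138, had log2 levels of 12.53 and 12.94 ex vivo and of 12.28, 12.73 and 12.66 in culture. Their summed intensity was 63310 to 65890 ex vivo and 60850 to 62780 in culture. The markers of other cells were summed likewise. The summed intensity of 10 macrophage markers was 1877 to 2222 ex vivo and 1594 to 1938 in culture. This overlap hid changes within the list, where Cd68 rose by 0.89 with the block and the mean was lower in culture for 8 of 9 tested markers, Mrc1 by -1.68 among them. Over all tested genes, the mean was higher in culture for 39.1%. Of the 8, C1qa, C1qb and C1qc reached the floor in the ex vivo arrays only. They entered the test because they were high there and add no support. The sum over 7 neutrophil markers was 499.9 to 814 and 406 to 417. For 10 T and NK cell markers it was 2523 to 2530 and 1918 to 2091, and for 6 markers of basophils, mast cells and eosinophils 5401 to 6289 and 8071 to 9297. Nearly all of the last sum came from Prg2 (log2 12.56 and 12.33 ex vivo, 13.14, 12.93 and 13.06 in culture), and Cpa3, Fcer1a and Epx were not tested. The 10 B cell and precursor markers summed to 17560 to 17690 and 16280 to 17920, and 4 erythroid markers to 188 to 195 and 173 to 205. With the block, 1 T and NK cell marker and 1 B cell marker fell, and no neutrophil, erythroid, basophil, mast cell or eosinophil marker passed. The share over all tested genes was 1.74%. Several of these cells carry integrins of the group, and their part in the member values was not tested.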

How the data were processed

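Total RNA of 5 samples was hybridized to Affymetrix mouse GeneChips. The authors summarized the scans by RMA in the R package affy (versions not given in the sources used here) and deposited background-corrected, normalized values as linear intensities. Depth does not apply to arrays, and the number of arrays limits the precision.

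From the deposited intensity values, log2 was taken. Of 45101 probe sets, 64 control probe sets were left out of the tests. The platform annotation gave 1 gene symbol for 34945 probe sets, several for 932 and none for 9160, and 34741 symbols were brought up to date through the gene ID. None of the probe sets with several symbols lists a member. Tests covered the 30477 probe sets (13578 genes) that reached an intensity of 50 on 2 arrays or more, in limma 3.58.1 (R 4.3.3), with Benjamini-Hochberg adjustment over all of them and a threshold of 0.05. Groups came from the sample titles. The model held culture alone, since the study's methods name limma and no covariate. A second model added the experiment number as a block. As a check of the pairing, each array's deviation from its group mean was correlated with that of its experiment's other group, which gave r = 0.749 (experiment 1), 0.558 and 0.719 (experiment 2). With 2 ex vivo arrays these deviations mirror each other, so that the 3 values are not independent, and the pairing rests on the titles. The 2 cultured arrays of experiment 2 correlated at 0.995, with a median difference of 0.124 on the log2 scale, and were kept as separate samples. The steps were tested on simulated data first.

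All probe sets of the 10 members are reported, and counts by gene use the probe set with the highest mean. From each of 7 lists of related genes (112 genes), up to 4 called genes with the largest change are named, or else the 2 with the largest change, always by the brightest probe set. Icam1, Icam2, Itgav and Itga2b are named as ligands or partners of members. Another 9 lists hold cell type markers. Members and lists were chosen with earlier results of these data known. Alternatives were averaging the repeat, no filter or a floor of 100, quantile normalization, median centring, an intensity trend, an unadjusted p under 0.01, the median over probe sets, and leaving out each array. Figures were drawn with matplotlib 3.10.9.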

Additional observations from a re-analysis of the deposited data

Results flagged for a closer look

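On 6 of the 24 tested probe sets the change in experiment 1 ran opposite to both changes in experiment 2. Itga4 (1421194_at) changed by 0.41 in experiment 1 and by -0.17 and -0.20 in experiment 2, on the log2 scale. For Itga6 (1422445_at) the changes were 0.34 in experiment 1 and -0.0143 and -0.21 in experiment 2. The brightest probe set of Itgb1 (1452545_a_at) gave 0.34 against -0.0804 and -0.22, and that of Itgb7 (1418741_at) gave 0.19 against -0.19 and -0.0753. Itgb2 (1450678_at) went the other way, with -0.062 in experiment 1 and 0.30 and 0.00075 in experiment 2, and Cd44 (1452483_a_at) gave 0.0772 against -0.20 and -0.19. Experiment 1 gave 1 change and experiment 2 gave 2 that share an ex vivo array. In limma's interaction test, which left 1 residual degree of freedom, the smallest unadjusted p among them was 0.0318 and the smallest adjusted p was 0.654.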

How the results depend on the processing

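In the model of culture alone, 0 of the 24 integrin probe sets passed under each alternative without the block, and with the replicate block 1 passed, of 1 gene (Itgb3). The count of calls over the whole array, 14, moved to 550 with the replicate block, 0 with the cultured arrays of experiment 2 averaged, 5 without the filter, 31 with the floor of 100, 22 with an intensity trend and 618 at an unadjusted p under 0.01, and lay between 0 and 257 when 1 array was left out (257 without the cultured array of experiment 1). With averaging and the replicate block together it was 187, and with the block minus 1 repeat of experiment 2 it was 271 (first dropped) or 153 (other dropped). The count of 550 with the block moved to 187 with averaging, 206 without the filter, 2252 at an unadjusted p under 0.01 and 14 without the block, and to between 0 and 271 with 1 array left out. The call of Itgb3 with the block was lost with averaging, without the filter and without either cultured array of experiment 2 (0 probe sets and 0 genes each). Calls over the whole array also fell in these settings. Leaving out any other array leaves the change to 1 experiment with 1 ex vivo array, which cannot decide the call. The call was kept with the floor of 100, both other normalizations and the intensity trend. With no filter, the adjusted p of Itgb3 (1455257_at) was 0.059.

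For the difference between the experiments, leaving out 1 array gave 0 to 6916 calls over the array in place of 8170, 0 to 5 of the integrin probe sets in place of 8, and 0 to 2 genes in place of 3, with 1 gene without the filter. The interaction had 0 calls, and 210 at an unadjusted p under 0.01. With the block, leaving out an array of experiment 1 or the ex vivo array of experiment 2 was added after seeing the data, as were the median over a gene's probe sets with the block and all alternatives for the experiment difference and the interaction. Leaving out an array removes a sample; the cause of the other shifts was not tested. Of 383 single probe set values under alternatives to the model of culture alone and 287 to that with the block, 35 and 28 changed sign, all of probe sets that had not passed. Quantile normalization and median centring moved the median change of all probe sets from -0.02 to -0.04 and -0.07. With 5 arrays, no depth can be given.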

Other observations

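The profile of the brightest Itgb1 probe set over the 5 arrays, centred on its mean, was set against that of 13577 other genes. The smallest root mean square differences on the log2 scale were those of Cpne3 (0.0229), Ptpn4 (0.0359) and Fgd6 (0.0401). This likeness rests on 5 arrays of 2 experiments and is given as a description only.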
